A study of Rattus norvegicus with 10 samples.

Results

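The thiazide-sensitive Na+-Cl- cotransporter NCC, encoded by *Slc12a3*, and the kinases and ubiquitin ligase that set its activity were examined in the renal cortex of PCK rats of both sexes, together with the magnesium channels and transporter of the same tubule segment. The 10 genes were chosen by name, namely *Slc12a3*, *Wnk1*, *Wnk4*, *Stk39*, *Oxsr1*, *Klhl3*, *Cul3*, *Trpm6*, *Trpm7* and *Cnnm2*. All 10 were found, each as 1 row, among the 32545 genes of the expression table, and all 10 passed the filter on low values described below.

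The PCK rat (PCK/CrljCrl-Pkhd1pck/Crl) is used as a model of autosomal recessive polycystic kidney disease, with *Pkhd1* as the mutated gene. RNA was sequenced from kidney of 5 male and 5 female rats, with 1 library per rat and no treatment. All 10 rats carry the mutation, so the comparison is between the sexes within cystic kidneys and has no non-cystic control. The sample labels give an age of 12 to 14 weeks and the tissue as kidney, whereas the methods of the study give a somewhat lower age and cortex. All the rats were littermates from 2 litters, and the litter of each rat was not used here.

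NCC reabsorbs sodium and chloride across the apical membrane of the distal convoluted tubule and is the target of thiazide diuretics. The WNK kinases phosphorylate SPAK (*Stk39*) and OSR1 (*Oxsr1*), which in turn phosphorylate and activate NCC, while an E3 ubiquitin ligase built from KLHL3 and cullin 3 marks WNK kinases for degradation. The same cells take up magnesium through the channel TRPM6, and loss of NCC in Gitelman syndrome lowers plasma magnesium. Activity of the pathway is set largely by phosphorylation and protein turnover, which RNA-seq does not measure.

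Libraries held between 13912569 and 20285911 reads on genes, and mitochondrial genes took 14.3% to 26.8% of them, with the highest share in female 2. Expression is given as FPKM (fragments scaled to gene length and to a size set for each library), and each mean carries the SD of its 5 rats. The sexes were compared by limma on log2(FPKM + 0.1) over 17631 genes that averaged 0.1 FPKM or more, and a gene was called when its p, adjusted over all of them by Benjamini-Hochberg, was at most 0.05. Fold changes are of females over males on that log2 scale. For single genes the mean FPKM of the sexes was also compared by a two-sided exact permutation test, whose p cannot go below 0.00794 with 5 rats against 5. In whole tissue, fewer cells of a type and less RNA per cell cannot be told apart.

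The promoter windows of the cotransporter and of the 2 genes that passed the test, *Wnk1* and *Stk39*, are shown to place these genes in sequence. They are the 250 bases before the start that RefSeq lists for each gene on the rat build GRCr8, read 5′ to 3′ on the strand of the gene. The expression table uses another build, Rnor_6.0, so these positions do not carry over to it. Windows were found for 9 of the 10 genes. Capitals mark matches on either strand to 3 motifs. The TATA box was searched as TATAAA. The GC box was searched as GGGCGG, and the CCAAT box by the 5 letters of its name.
*Slc12a3*, chr19:10675051-10675300, minus strand: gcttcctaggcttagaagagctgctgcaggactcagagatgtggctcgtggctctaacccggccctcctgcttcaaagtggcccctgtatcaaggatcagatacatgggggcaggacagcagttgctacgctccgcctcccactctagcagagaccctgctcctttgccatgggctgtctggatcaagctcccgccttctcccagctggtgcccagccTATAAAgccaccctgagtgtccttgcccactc
*Wnk1*, chr4:154926148-154926397, minus strand: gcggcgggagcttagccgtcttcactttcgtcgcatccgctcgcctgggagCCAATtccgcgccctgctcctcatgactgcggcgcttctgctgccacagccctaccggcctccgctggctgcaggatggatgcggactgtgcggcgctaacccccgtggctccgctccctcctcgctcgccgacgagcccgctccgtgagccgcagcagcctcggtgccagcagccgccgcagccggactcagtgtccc
*Stk39*, chr3:73586980-73587229, minus strand: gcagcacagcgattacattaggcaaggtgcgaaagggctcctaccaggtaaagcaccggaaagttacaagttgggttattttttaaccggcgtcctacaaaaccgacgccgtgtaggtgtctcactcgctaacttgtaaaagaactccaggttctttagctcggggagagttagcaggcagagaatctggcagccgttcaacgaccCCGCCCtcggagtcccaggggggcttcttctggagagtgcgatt
The *Slc12a3* window held a TATA box that begins 32 bases before the start, a motif present in 12.9% of the 33469 promoter windows of the same length. The *Wnk1* window had no TATA box, a GC content of 70.8% against a median of 51.2% over all windows, and 1 CCAAT box (in 34.0% of windows). The *Stk39* window held 1 GC box (in 30.5% of windows), which begins 44 bases before the start on the opposite strand. Neither the half-site AGAACA bound by steroid receptors (in 17.5% of windows) nor the full palindromic glucocorticoid and estrogen response elements were among the letters of these 3 windows. AGAACA was found in the 2 windows of *Trpm6* that begin 1 base apart and share nearly all their sequence. The table lists 1 start for *Wnk1* and does not separate the long transcript from the kidney-specific one.

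Among the 10 genes, *Slc12a3* had the highest level per length in every rat, at 129 ± 32.8 FPKM (SD, n = 10). *Wnk1* came next at 60.7 ± 14.9 FPKM and was above *Cul3* (24.1 ± 2.90 FPKM) in 10 of 10 rats. *Trpm7* (19.98 ± 2.43 FPKM), *Cnnm2* (17.5 ± 3.53 FPKM) and *Oxsr1* (17.3 ± 1.61 FPKM) followed, and the last pair did not differ beyond their spread, since *Cnnm2* was above *Oxsr1* in 4 of 10 rats. *Stk39* (11.6 ± 2.58 FPKM) and *Klhl3* (8.65 ± 2.05 FPKM) came below them. *Wnk4* (5.79 ± 1.16 FPKM) and *Trpm6* (5.42 ± 0.967 FPKM) were lowest and could not be ordered, with *Wnk4* the higher in 5 of 10 rats. Depth did not limit these values, as the fewest reads on any of the genes in a library were 144, on *Klhl3*. The deposited lengths of *Wnk4*, *Klhl3*, *Trpm6* and *Cnnm2* are multiples of 3, as a coding length would be, and which parts of the transcripts these lengths cover is not stated.

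**Figure D1:**
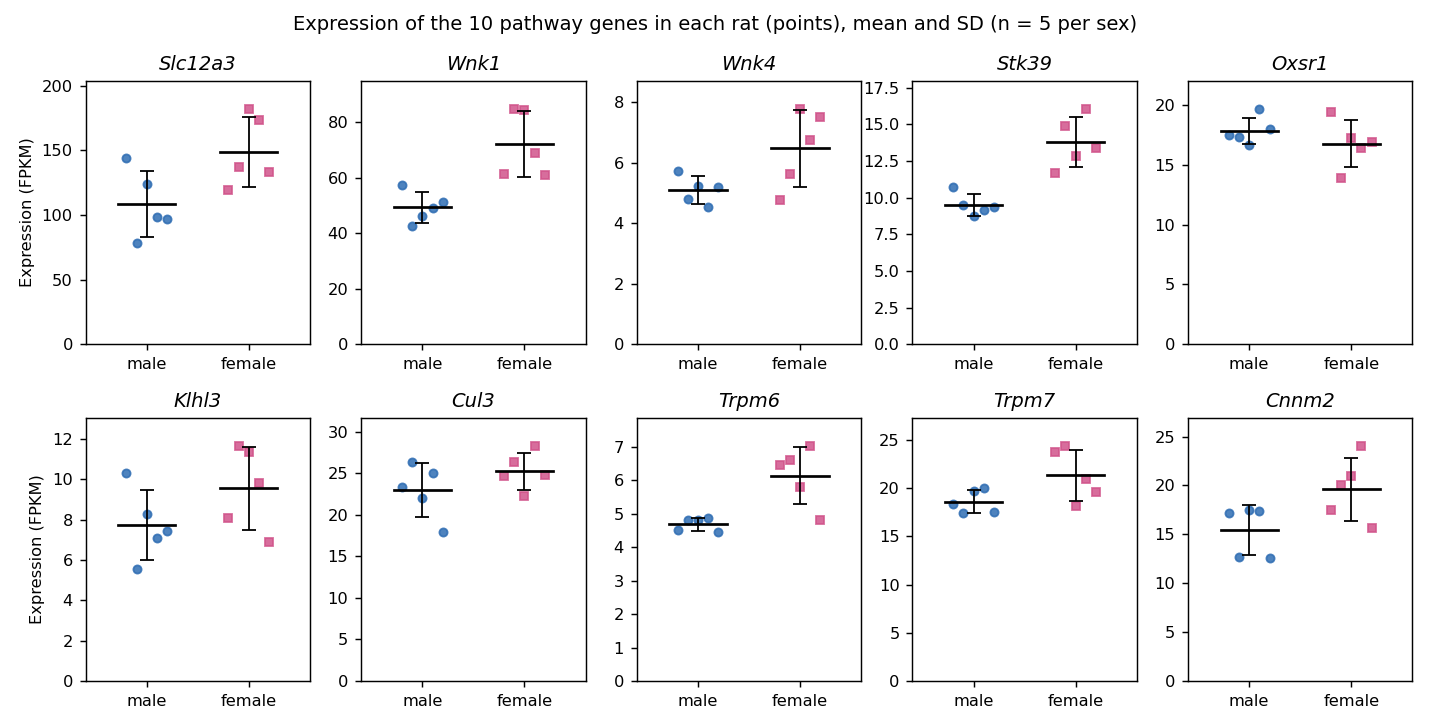
Expression of each of the 10 genes in FPKM (y axis, from 0, scaled separately for each gene) in 5 male (circles) and 5 female (squares) rats, with the mean and SD as bars. For *Wnk1* and *Stk39* all female points lie above all male points, while for the other 8 genes the sexes overlap.

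Of the 10 genes, 2 were higher in females and none was lower. *Wnk1*, the WNK kinase with the higher transcript level, rose from 49.3 to 72.2 FPKM, and *Stk39*, which encodes the kinase SPAK, rose from 9.49 to 13.8 FPKM. For comparison, 2.40% of all tested genes were called, 1.26% higher and 1.14% lower. Neither of the 2 reached a log2 fold change of 1, a second threshold that called 1.32% of all tested genes. On the log2 scale the fold change was above 0 for 9 of the 10 genes, against 48.8% of all tested genes, and its median was 0.33 over the 10 genes and −0.0066 over all. At an unadjusted limma p of at most 0.05, 6 of the 10 genes passed, all of them higher in females, against 15.7% of all tested genes (7.67% higher). limma-voom on the recovered reads also called 2 higher and 0 lower. The ranges of the sexes were apart for 2 of the 10, against 5.10% of all tested genes (2.50% higher and 2.60% lower).

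**Figure D2:**
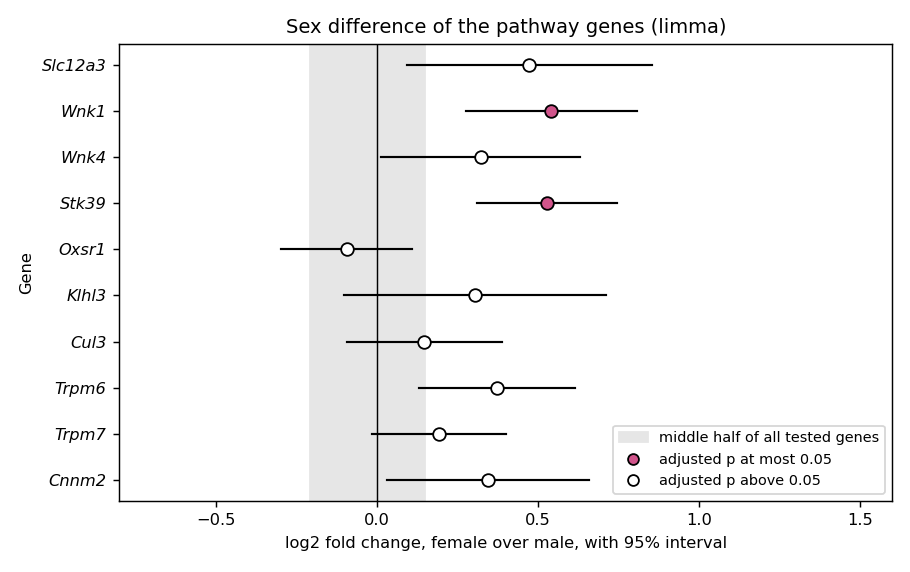
Log2 fold change of females over males (x axis) for the 10 genes (y axis) with its 95% interval from limma, where filled points have an adjusted p of at most 0.05 and the grey band spans the middle 50% of all tested genes. *Wnk1* (0.54) and *Stk39* (0.53) are filled, and *Oxsr1* (−0.09) is the 1 gene below 0.

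*Slc12a3* (ENSRNOG00000057072, Rnor_6.0 chromosome 19, 11106033 to 11144641, minus strand) was at 144, 78.5, 123, 98.3 and 97.0 FPKM in males 1 to 5 and at 119, 137, 182, 173 and 133 FPKM in females 1 to 5. Male 1 was above 3 of the 5 females, so the groups overlapped, although the 2 highest values were both female. The means were 108 ± 25.5 FPKM in males against 149 ± 27.1 FPKM in females, or a log2 fold change of 0.47 (95% interval 0.09 to 0.85). The adjusted p of limma was 0.207 and the exact permutation p was 0.0556. *Slc12a3* was therefore not called, and the interval still holds a rise in females of up to 0.85. Without male 1 the exact permutation p was 0.0238, and without female 1 it was 0.0476. With each other rat left out it was above 0.05, up to 0.119 without male 2.

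*Wnk1* (ENSRNOG00000009956, chromosome 4, 152452848 to 152578446, minus strand) encodes a WNK kinase and, in the distal convoluted tubule, also a short kidney-specific form that lacks most of the kinase domain. The values per gene sum these forms. It was at 57.2, 42.8, 46.1, 49.3 and 51.2 FPKM in males and at 61.4, 84.7, 84.6, 69.1 and 61.1 FPKM in females. All 5 females were above all 5 males, with females 2 and 3 the highest, and the gap between the groups was narrow, from 57.2 to 61.1 FPKM. The fold change on the log2 scale was 0.54 (SE 0.12, adjusted p = 0.0422 by limma). The call was a close one: it was lost in 7 of the 10 fits without 1 rat, with adjusted p of up to 0.111, while the log2 fold change stayed between 0.48 and 0.60. These 7 were the fits without male 2, 3, 4 or 5 and without female 2, 3 or 4. The call of *Wnk1* also ended with quantile normalization (limma adjusted p = 0.107) and with no filter on low values (limma adjusted p = 0.0528).

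*Wnk4* (ENSRNOG00000020441, chromosome 10, 89181165 to 89198213, plus strand) encodes the other WNK kinase of the group, mutated like *WNK1* in familial hyperkalemic hypertension. Males ranged from 4.54 to 5.72 FPKM and females from 4.76 to 7.77 FPKM, and females 1 and 2 lay within the range of the males. The log2 fold change of *Wnk4* was 0.32 (95% interval 0.01 to 0.63, adjusted p = 0.297 by limma, exact permutation p = 0.0794), and without female 1 the exact permutation p was 0.0159. With each other rat left out the exact permutation p was above 0.05, up to 0.135. The locus LOC100360002, at a mean of 25.6 FPKM, overlaps *Wnk4* by 308 bases on the opposite strand, and the sources do not say whether reads were counted by strand, so the *Wnk4* values are uncertain.

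*Stk39* (ENSRNOG00000024808, chromosome 3, 54359451 to 54625414, minus strand) encodes SPAK, the kinase that phosphorylates NCC directly. It was at 10.7, 9.49, 8.75, 9.13 and 9.37 FPKM in males and at 11.7, 14.9, 12.9, 16.0 and 13.4 FPKM in females. The males lay close together, and every female was above every male. On the log2 scale the fold change was 0.53 (SE 0.10, adjusted p = 0.0179 by limma, exact permutation p = 0.00794). It was called in 9 of the 10 fits that left out 1 rat, and without male 3 its limma adjusted p was 0.0558.

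*Oxsr1* (ENSRNOG00000013136, chromosome 8, 127920349 to 128009951, minus strand) encodes OSR1, the close relative of SPAK with the same docking partners. It was at 17.6, 17.3, 16.7, 19.7 and 18.0 FPKM in males and at 19.5, 14.0, 17.3, 16.4 and 16.9 FPKM in females. Female 1 was the second highest of all rats and female 2 the lowest, so the groups lay over each other. The fold change of *Oxsr1* on the log2 scale was −0.09 (95% interval −0.30 to 0.11, adjusted p = 0.690 by limma).
*Stk39* and *Oxsr1* were also compared within each library, where the scaling of a library cancels. The ratio of *Stk39* to *Oxsr1* was 0.464 to 0.609 in males (median 0.523) and 0.601 to 1.07 in females (median 0.790). The groups touched only at male 1 and female 1, and in female 2 the level of *Stk39* was above that of *Oxsr1*. On the log2 scale the ratio was higher in females by 0.63 (exact permutation p = 0.0159), and by 0.53 to 0.74 with each rat left out. This was 1 of 6 ratios tested within libraries, and it was the 1 ratio with an exact permutation p of at most 0.05.

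**Figure D3:**
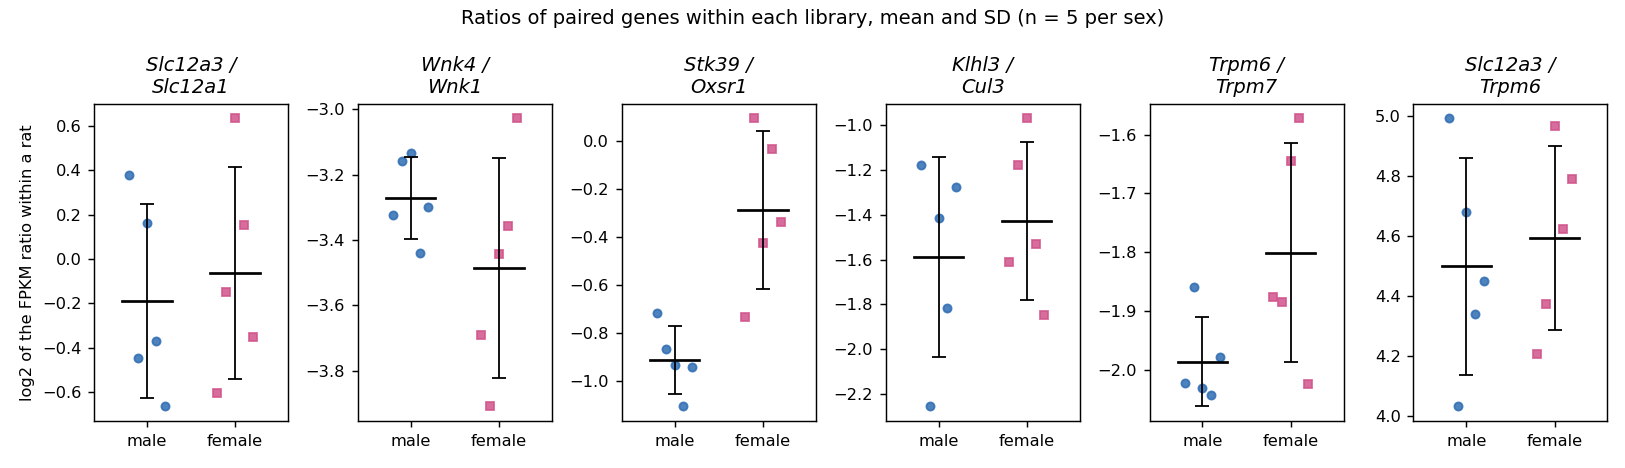
Log2 of the FPKM ratio of paired genes within each library (y axis, scaled separately for each pair) in 5 male (circles) and 5 female (squares) rats, with the mean and SD as bars. The ratio of *Stk39* to *Oxsr1* is higher in females (mean −0.29 against −0.91), and the other 5 ratios overlap broadly between the sexes.

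*Slc12a3* was set against *Slc12a1*, which encodes NKCC2, the cotransporter of the thick ascending limb that SPAK and OSR1 also phosphorylate. *Slc12a1* was at 122 ± 19.5 FPKM in males against 155 ± 24.3 FPKM in females, or a log2 fold change of 0.35 (adjusted p = 0.243 by limma, exact permutation p = 0.0476). The ratio of *Slc12a3* to *Slc12a1* was 0.631 to 1.298 in males and 0.659 to 1.55 in females, so either transcript could be the more abundant in either sex. The mean log2 ratio differed by 0.13 (exact permutation p = 0.627), and without female 3 the difference was −0.049.
The ratio of *Wnk4* to *Wnk1* was 0.0922 to 0.114 in males and 0.0665 to 0.123 in females, so *Wnk4* stayed far below *Wnk1* in every rat. Its log2 difference was −0.21 (exact permutation p = 0.230), and without female 5 it was −0.33 with an exact permutation p of 0.0238. With each other rat left out the exact permutation p was above 0.05, up to 0.460. The ratio of *Slc12a3* to *Trpm6*, a pair of genes of the distal convoluted tubule, differed by 0.09 on the log2 scale (exact permutation p = 0.659), and without male 2 by −0.022.

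*Klhl3* (ENSRNOG00000019533, chromosome 17, 6935860 to 7029240, plus strand) encodes the adaptor that brings WNK kinases to the ligase. It ranged from 5.53 to 10.3 FPKM in males and from 6.91 to 11.7 FPKM in females, with male 1 above 3 of the females. The log2 fold change of *Klhl3* was 0.30 (95% interval −0.10 to 0.71, adjusted p = 0.468 by limma).
*Cul3* (ENSRNOG00000015633, chromosome 9, 86044485 to 86103158, minus strand), which encodes the scaffold of the ligase and serves many other adaptors in every cell, ranged from 18.0 to 26.4 FPKM in males and from 22.3 to 28.3 FPKM in females. Male 5 was the lowest of all rats. On the log2 scale the fold change of *Cul3* was 0.15 (95% interval −0.09 to 0.39, adjusted p = 0.570 by limma), and the log2 ratio of *Klhl3* to *Cul3* differed by 0.16 (exact permutation p = 0.563), a difference that was −0.0062 without male 2.

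*Trpm6* (ENSRNOG00000013053, chromosome 1, 234479289 to 234596971, minus strand) encodes the apical magnesium channel of the distal convoluted tubule. It was at 4.51, 4.804, 4.82, 4.86 and 4.44 FPKM in males and at 6.46, 6.61, 5.81, 7.03 and 4.82 FPKM in females. The males were within a narrow band and 4 of the 5 females were above all of them, while female 5 fell inside the band. The fold change of *Trpm6* on the log2 scale was 0.37 (95% interval 0.13 to 0.61). It was past the spread between rats by the exact permutation test taken singly (p = 0.0238, 1 of 10 such tests) but was not called over all genes (adjusted p = 0.118 by limma). Without female 5 the log2 fold change was 0.45 and the limma adjusted p 0.0474. With each other rat left out it was not called (limma adjusted p up to 0.233).
*Trpm7* (ENSRNOG00000057806, chromosome 3, 119259467 to 119330345, minus strand), the widely expressed relative of *Trpm6*, ranged from 17.4 to 20.04 FPKM in males and from 18.2 to 24.4 FPKM in females. Females 1 and 2 were the highest, and females 3 and 5 lay within the range of the males. The log2 fold change of *Trpm7* was 0.19 (95% interval −0.02 to 0.40, adjusted p = 0.362 by limma, exact permutation p = 0.0794), and without female 3 the exact permutation p was 0.0238. With each other rat left out the exact permutation p was above 0.05, up to 0.143. The ratio of *Trpm6* to *Trpm7* was 0.243 to 0.276 in males and 0.246 to 0.336 in females, a log2 difference of 0.19 (exact permutation p = 0.103). Its exact permutation p was 0.0476 without male 2 and 0.0317 without female 5, and above 0.05 with each other rat left out (up to 0.198).
*Cnnm2* (ENSRNOG00000020113, chromosome 1, 266530477 to 266649398, plus strand), which encodes a basolateral membrane protein needed for magnesium reabsorption, ranged from 12.54 to 17.5 FPKM in males and from 15.6 to 24.0 FPKM in females. Female 4 was the highest, and females 1 and 5 lay within the range of the males. On the log2 scale the fold change of *Cnnm2* was 0.34 (95% interval 0.03 to 0.66, adjusted p = 0.267 by limma, exact permutation p = 0.0635), and without female 5 the exact permutation p was 0.0159. With each other rat left out the exact permutation p was above 0.05, up to 0.143.

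The cell type behind the cotransporter was checked on 6 marker genes of the distal convoluted tubule, 2 of which, *Slc12a3* and *Trpm6*, are among the 10 genes. Reads were found on 5 of the 6, and *Pvalb*, which encodes parvalbumin, is listed at 0 in all 10 libraries. The other 3 were *Tmem52b* (99.4 ± 13.7 FPKM in males, 130 ± 24.8 FPKM in females), *Emx1* (13.0 ± 1.53 and 19.2 ± 2.27 FPKM) and the transcription factor gene *Sall3* (1.55 ± 0.474 and 2.19 ± 0.470 FPKM). Their log2 fold changes were 0.38, 0.56 and 0.49, close in size to the 0.47 of *Slc12a3*, and *Emx1*, a homeobox gene, was called (adjusted p = 0.0220 by limma). *Tmem52b* (adjusted p = 0.241 by limma) and *Sall3* (adjusted p = 0.316 by limma) were not called, and their ranges overlapped between the sexes. Summed without the members, the markers were at 92.8 to 129.98 FPKM in the males and 114 to 175 FPKM in the females (exact permutation p = 0.0476). *Tmem52b* made up most of this sum, and the test was not repeated with each rat left out. With the members, the sum was 193 to 278 FPKM in the males and 240 to 363 FPKM in the females (exact permutation p = 0.0397), and the p was above 0.05 without male 2, 4 or 5 and without female 2, 3 or 4 (up to 0.0794).
Markers of other cells moved as well. Those of the connecting tubule summed to 143 to 223 FPKM in the males and 221 to 403 FPKM in the females (exact permutation p = 0.0159), but 1 of the 3 genes made up most of that sum. This was *Calb1*, the calcium-binding protein calbindin, which was called higher (139 ± 29.5 FPKM in males against 281 ± 71.9 FPKM in females, log2 fold change 0.998, adjusted p = 0.0226 by limma). The other 2 were not called, with log2 fold changes of 0.22 for *Trpv5* (adjusted p = 0.821 by limma) and 0.15 for *Slc8a1* (adjusted p = 0.786 by limma). Those of intercalated cells were at 104 to 171 and 176 to 276 FPKM with no overlap (exact permutation p = 0.00794), and those of fibroblasts were lower in females, at 113 to 161 and 35.6 to 93.7 FPKM (exact permutation p = 0.00794). The sums for the thick ascending limb (1036 to 1551 FPKM in the males and 1075 to 1717 FPKM in the females, p = 0.0635), principal cells (151 to 231 and 180 to 260 FPKM, p = 0.0556) and proximal tubule (1033 to 2031 and 1090 to 2219 FPKM, p = 0.762) overlapped and did not pass the exact permutation test. The same held for podocytes (107 to 144 and 98.0 to 159 FPKM, exact permutation p = 0.317), endothelium (60.6 to 75.5 and 57.2 to 103 FPKM, p = 0.365) and leukocytes (21.6 to 34.4 and 9.27 to 37.4 FPKM, p = 0.381). Single genes of these lists were called in both directions. *Ptger3*, a prostaglandin receptor gene in the thick ascending limb list, was lower in females (log2 fold change −0.62, adjusted p = 0.0435 by limma), against the direction of its sum, which was mostly *Umod* (log2 fold change 0.35, adjusted p = 0.419 by limma). The vasopressin receptor gene *Avpr2* of principal cells (0.44, adjusted p = 0.0469 by limma) and the endocytic receptor gene *Cubn* of the proximal tubule (0.72, adjusted p = 0.0467 by limma) were higher, and the collagen gene *Col3a1* of fibroblasts was lower (−1.14, adjusted p = 0.0477 by limma). The 4 intercalated cell genes had adjusted p of 0.0666 to 0.232 by limma. The exact permutation p fell to 0.0238 for principal cells without male 1 and 0.0397 without female 1, to 0.0476 for podocytes and for endothelium without female 1, and to 0.0397 for leukocytes without female 2. The part of these shifts in the higher *Wnk1* and *Stk39* was not tested.

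Further genes of the pathway were read from lists, each described by its calls and its median beside the −0.0066 and the 2.40% of all tested genes. Of 15 regulators of the WNK and SPAK kinases, 14 were found and 13 tested, and 1 was called higher. This was *Ppp1r1a*, which encodes an inhibitor of protein phosphatase 1 that keeps NCC phosphorylated in the distal convoluted tubule. It was at 66.9, 75.1, 54.0, 75.1 and 79.9 FPKM in males and at 104, 178, 95.9, 116 and 121 FPKM in females, with female 2 far above the rest and no overlap. Its log2 fold change was 0.78 (SE 0.17, adjusted p = 0.0332 by limma), and it was called in 4 of the 10 fits that left out 1 rat. The fits that lost it were those without male 1, 2, 3 or 4 and without female 4 or 5 (limma adjusted p up to 0.0816). It was also lost with quantile normalization (limma adjusted p = 0.0531).
The median log2 fold change of the regulators was 0.11. The most abundant were *Ppp1ca*, the catalytic subunit of that phosphatase (163 ± 13.9 FPKM in males against 181 ± 18.3 FPKM in females, adjusted p = 0.502 by limma), and *Rbx1*, the RING subunit of cullin ligases (121 ± 17.9 and 136 ± 9.74 FPKM, adjusted p = 0.483 by limma). The WNK kinase gene *Wnk2* had 1 to 22 reads per library and was below the filter for limma. Its level was 0.126 ± 0.0210 FPKM in males against 0.0437 ± 0.0277 FPKM in females, lower in females with the ranges apart (exact permutation p = 0.00794).

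Of the 6 other cotransporters that SPAK and OSR1 phosphorylate, none was called by limma, and 2 had an unadjusted limma p of at most 0.05. With limma-voom on the recovered reads the count was also 0, and without male 5 limma called 1 of them lower. Their median log2 fold change was −0.07. *Slc12a1* is described above, and the next most abundant, the K+-Cl- cotransporter gene *Slc12a4*, was at 15.3 ± 0.939 FPKM in males against 14.6 ± 1.62 FPKM in females (log2 fold change −0.07, adjusted p = 0.762 by limma).

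The potassium and chloride channels that set the membrane voltage of distal cells had a median of 0.51, the highest of these 5 lists. All 7 log2 fold changes were above 0, against 48.8% of all tested genes, and 2 genes were called higher. The study had reported *Kcnj1*, *Kcnj10* and *Kcnj16* as different between the sexes, and the list was written with earlier results of these data known. Its rank and calls are therefore not independent of those results. The markers of intercalated cells had a higher median, 0.64, and those of the distal convoluted tubule (0.47), principal cells (0.40) and connecting tubule (0.22) lay above 0 as well. So did those of the proximal tubule (0.27), podocytes (0.26), thick ascending limb (0.24) and endothelium (0.030), while those of leukocytes (−0.46) and fibroblasts (−0.87) lay below. The part of these cells in the shift of the channels was not tested. *Bsnd*, which encodes barttin, an accessory subunit of basolateral chloride channels, was at 25.7, 20.5, 21.6, 21.6 and 23.0 FPKM in males and at 27.0, 28.8, 36.1, 36.4 and 32.6 FPKM in females. Every female was above every male, and the log2 fold change was 0.51 (SE 0.10, adjusted p = 0.0251 by limma). The call of *Bsnd* was lost in 7 of the 10 fits that left out 1 rat, those without male 2, 3, 4 or 5 and without female 3, 4 or 5 (limma adjusted p up to 0.0746). It was also lost with the replicate number as a block (limma adjusted p = 0.111). *Kcnj1*, the potassium channel ROMK, was the other call (log2 fold change 0.64, adjusted p = 0.00263 by limma). *Kcnj16*, a basolateral potassium channel gene and the most abundant of the list, was not called (log2 fold change 0.62, adjusted p = 0.157 by limma, exact permutation p = 0.0317). The study compared FPKM by unpaired t-test and reported both *Kcnj1* and *Kcnj16* as different between the sexes. By Western blot it found more Kir5.1, the protein of *Kcnj16*, in PCK females. Without female 2 the log2 fold change of *Kcnj16* was 0.77 and it was called (adjusted p = 0.0468 by limma). With each other rat left out it was not called (limma adjusted p up to 0.298).

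Of 19 further magnesium genes, 18 were tested and 1 was called. *Egf*, whose product raises TRPM6 activity and which the distal convoluted tubule and thick ascending limb make, was at 31.7, 27.7, 29.1, 31.9 and 32.2 FPKM in males and at 45.1, 45.9, 58.1, 64.9 and 57.4 FPKM in females. The lowest female was well above the highest male, and the log2 fold change of 0.82 (SE 0.11, adjusted p = 0.00233 by limma) was called in all 10 fits that left out 1 rat. The median of the list was −0.0071. At an unadjusted limma p of at most 0.05, 4 genes of the list passed. Besides *Egf* these were *Cnnm1* (log2 fold change −0.80), *Slc41a3* (−0.78) and *Egfr*, the receptor gene of EGF (−0.60). All of these others were lower in females and none was called, and the ranges of *Slc41a3* were apart. With each rat left out, limma called 0 to 1 genes of the list lower. The most abundant were *Fxyd2*, the γ subunit of the sodium pump (3413 ± 334 and 4491 ± 474 FPKM, log2 fold change 0.39, adjusted p = 0.346 by limma, exact permutation p = 0.0159), and *Pcbd1*, a transcriptional coactivator (187 ± 27.7 and 199 ± 19.8 FPKM, adjusted p = 0.745 by limma). *Kcna1*, a potassium channel of the apical membrane, had reads in 1 library, male 5, and was not tested.

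Among hormone receptors and the enzyme gene *Hsd11b2*, with 11 symbols in 12 rows since *Nr3c1* is listed under 2 identifiers, 2 genes were called and both were lower in females. *Prlr*, the prolactin receptor, was at 12.8, 16.5, 12.2, 35.8 and 20.8 FPKM in males and at 5.94, 3.18, 3.73, 5.67 and 4.44 FPKM in females, so the groups were far apart and male 4 stood above the other males. Its log2 fold change was −1.99 (SE 0.29, adjusted p = 0.00369 by limma). *Esr1*, the estrogen receptor α, was at 4.75, 5.58, 5.29, 6.88 and 5.03 FPKM in males and at 2.27, 1.66, 1.95, 3.72 and 2.43 FPKM in females, or a log2 fold change of −1.20 (SE 0.20, adjusted p = 0.00793 by limma). Both calls held in all 10 fits that left out 1 rat, and both passed the fold threshold too. The median of the 12 rows was −0.033. *Hsd11b2*, which inactivates glucocorticoids in aldosterone target cells, was the most abundant (178 ± 39.6 and 216 ± 46.1 FPKM, log2 fold change 0.28, adjusted p = 0.498 by limma), followed by *Pth1r*, the parathyroid hormone receptor (147 ± 17.0 and 147 ± 30.6 FPKM, adjusted p = 0.966 by limma).

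**Figure D4:**
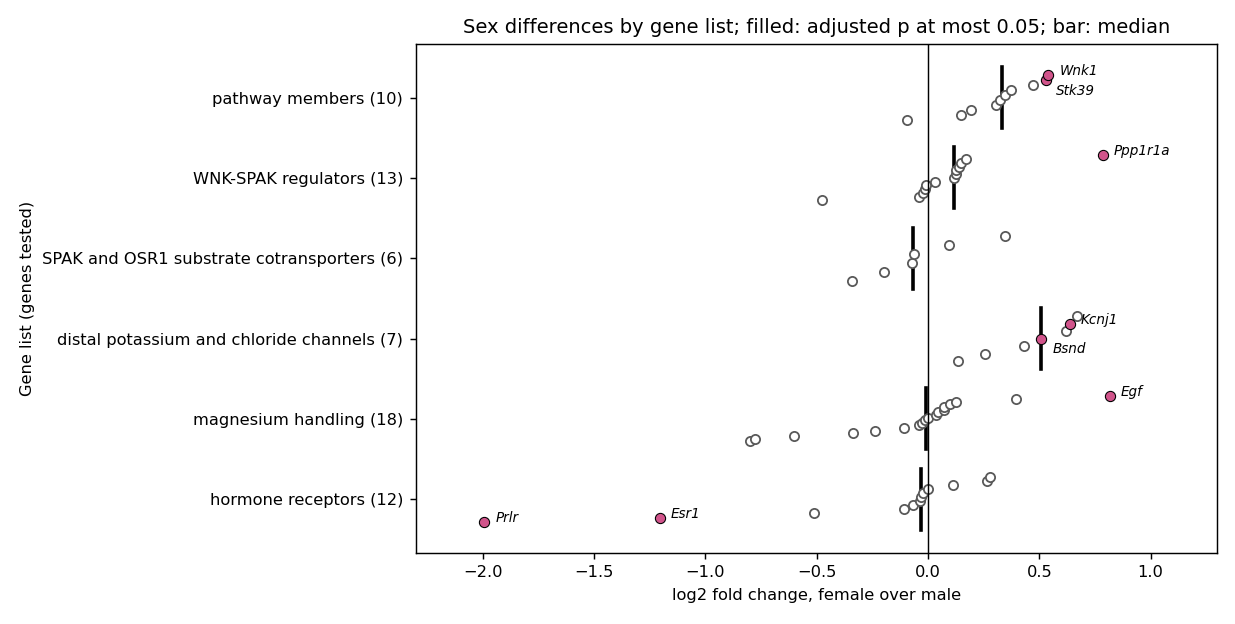
Log2 fold change of females over males (x axis) for each tested gene of the 10 pathway genes and of 5 further lists (y axis, with the number of genes tested), where filled points have a limma adjusted p of at most 0.05 and bars mark the median. The medians of the pathway genes (0.33) and of the distal channels (0.51) lie to the right of 0, and the called hormone receptors, *Prlr* (−1.99) and *Esr1* (−1.20), lie to the left.

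Genes with a pattern like that of *Slc12a3* were read from the Pearson correlation of log2(FPKM + 0.1) over the 10 libraries, among 13362 other genes that averaged 1 FPKM or more, as a description with no test. The 5 highest were *Gpc1* (r = 0.97), *Magi2* (0.96), *Gpd1l* (0.95), *Stard8* (0.94) and *Synpo2l* (0.94). Since they were taken as the highest of so many and the libraries share 2 sexes and a common scaling, values of this size are not evidence of a link. Of the pathway genes, *Cnnm2* (r = 0.85, rank 61), *Klhl3* (0.84, rank 68), *Wnk1* (0.80, rank 104) and *Wnk4* (0.79, rank 118) came next, and *Stk39* (0.73, rank 228) after them. *Trpm6* was at r = 0.54, *Trpm7* at 0.26 and *Cul3* at 0.17, and *Oxsr1* ran the other way, at −0.37.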

How the data were processed

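The table holds kidney RNA-seq of PCK rats, 5 of each sex, grouped by sample title. Per the labels, the authors' provider used fastp, HISAT2 2.0.5, StringTie 1.3.3b and featureCounts 1.5.0-p3. Reads were mapped to Rnor_6.0, and the deposited table gives FPKM for 32545 genes. The strand setting of the counting is not given, and 0 sample columns were left out.

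FPKM times gene length gave whole reads (within 0.01) for 100% of values in each library, from which depth was taken. All 10 libraries had a median-ratio factor of 1.01, which shows values scaled by median ratio rather than by read totals. The closest pair of libraries had a chi-square divided by its degrees of freedom of 9.71. R 4.3.3 with limma 3.58.1 (lmFit, eBayes with trend) and Python 3.11.15 with scipy 1.17.1 were used. The main test was limma on FPKM, where the study used a count model. Scripts were tested on simulated data.

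Named are the 10 members, the called genes and the 2 most abundant of each list, and the 5 genes most like *Slc12a3*. The members and lists were chosen with earlier results of these data known. Individual markers, genes below the filter, *Cnnm1*, *Slc41a3* and *Egfr* were named after their values were seen. *Kcnj10* is named because the study reported it. 1 gene that this rule names is not reported here. *Kbtbd7* was not analysed here, as no symbol matched. Alternatives were other pseudocounts (1 and 0.01), filters (none and a mean of 1 FPKM), scalings, limma-voom on the recovered reads, a replicate block, the added fold threshold and leaving out each rat. P-values treat the rats as independent, although all came from 2 litters.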

Additional observations from a re-analysis of the deposited data

How the results depend on the processing

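The count of 2 pathway genes called higher in females was 1 with no filter on low values (*Stk39*), 1 with quantile normalization (*Stk39*), 0 with the fold threshold added, and 0 to 3 with each rat left out. It was 2 with both other pseudocounts, with a filter at a mean of 1 FPKM and with limma-voom, and no pathway gene was called lower in any setting. Over all tested genes, the 223 higher and 201 lower became 109 and 123 with the fold threshold, and 140 to 284 and 124 to 266 with each rat left out, lowest for higher genes without male 3 and for lower genes without female 5, and most for both without female 2. With each rat left out, the log2 difference in ratio ran from −0.049 to 0.27 for *Slc12a3* to *Slc12a1*, −0.33 to −0.11 for *Wnk4* to *Wnk1*, −0.0062 to 0.27 for *Klhl3* to *Cul3*, 0.13 to 0.24 for *Trpm6* to *Trpm7* and −0.022 to 0.22 for *Slc12a3* to *Trpm6*. The log2 fold change of *Pcbd1* was −0.0094 with quantile normalization, and that of *Pth1r* ran from −0.11 to 0.067 with each rat left out. The difference in the mean proximal tubule marker sum, females minus males, ran from −59.8 to 232 FPKM with each rat left out. The cause of these shifts was not tested. Median-ratio scaling could change nothing between libraries, since the deposited values already had 1 factor in all of them, and with quantile normalization the median of all genes was 0.010.

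With the replicate number as a block, 0 pathway genes were called (limma adjusted p = 0.170 for *Wnk1* and 0.0969 for *Stk39*), and 119 genes were higher and 112 lower over all. Rats that share a number had correlations of −0.16 to 0.16 in their deviations from the group means, so no pairing by number was seen over all genes. Whether a number stands for a shared litter or handling was not tested.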
